A study of Mus musculus with 10 samples.

Results

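Cells divide through an ordered programme. Cyclins switch on cyclin-dependent kinases, E2F and FOXM1 transcription factors turn on the genes of the next stage, origins of replication are licensed and fired, DNA is copied and checked, and the copied chromosomes are then captured by the spindle, separated and parted into daughter cells. Most of these genes are silent or low in resting cells. In spleen T cells, which are mostly at rest until an antigen or a cytokine drives them to divide, transcripts of these genes are a common readout of how much of the sample is cycling.

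The genes described here are 47 well-known genes of the cell cycle and DNA replication, out of 20617 genes listed in the table. They were listed by name for their place in the cycle, and the choice of this set was made with earlier results of these data known. They comprised 9 cyclins and subunits of their kinases, 5 transcription or chromatin regulators, 5 genes of origin licensing and firing, 8 genes of DNA synthesis, fork checkpoint and repair, and 20 genes of mitosis and cytokinesis. All 47 passed the minimum level for testing, a mean of at least 1 normalized count, with means between 63.3 and 3117.

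Bulk RNA sequencing measured spleen CD3+ T cells from Nf1OPG mice, with 5 mice given PBS (replicates 1 to 5) and 5 mice given OVA (replicates 6 to 10), each replicate taken as 1 mouse. Nf1OPG mice (Nf1 flox/mut; GFAP-Cre) are a mouse model of neurofibromatosis type 1 optic glioma, in which Cre under the GFAP promoter removes the remaining Nf1 allele in neuroglial progenitors, while all other cells, T cells of both groups included, carry the germline mutant allele. OVA is chicken-egg ovalbumin, injected at 16 μg/mL with 2 mg/mL aluminum hydroxide over 2 weeks and followed by airway challenge to induce experimental asthma, and PBS was the vehicle. The age of the mice when these T cells were taken, and whether spleens were pooled, were not given in the sources used here, so that p-values measure the spread between these samples. The comparison addresses whether asthma induction changed the RNA of these T cells.

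Recovered reads ran from 6835697, in PBS replicate 3, to 23130016 over the PBS libraries and from 14711679 to 29915782 over the OVA libraries. The 12 T cell markers, led by Cd3d, Cd2 and Cd3e, had a median level percentile of 98.1 among all rows. In the deposited table the gene names had slipped against the values, and each gene was read from the row 3 to 7 rows above its name, by a rule that depends on the first letters of the name. The rows so chosen moved together across the mice, with a median pairwise Pearson r of 0.74 over the 10 libraries, without use of the treatment groups. Rows 1 below or 1 above those chosen gave 0.10 and -0.0014, and the rows under the names as listed gave -0.03. The row offsets were chosen with earlier results of these data known, so these values describe the rows and do not test the offsets. Over distances of 0 to 12 rows, the row taken had the highest r with the mean of the other genes in 26 of 47. These rows share libraries and depth, and no p is attached.

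**Figure D1:**
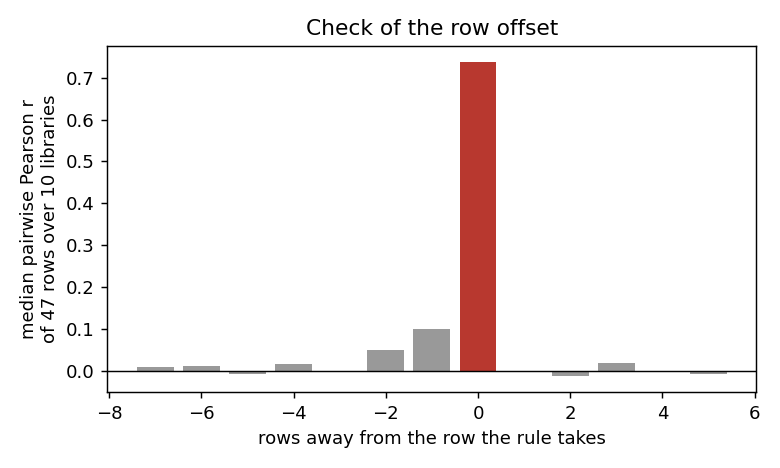
Median pairwise Pearson r (vertical axis) of 47 rows over the 10 libraries, for rows at a given distance (horizontal axis, in rows, negative for smaller offsets) from the row taken for each gene. The bar at 0 reaches 0.74, and every other bar lies between -0.02 and 0.10.

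The promoters show what many of these genes share. RefSeq promoter windows (GRCm38.p6, 250 bases before to 50 after the start) were at hand for 36 of the 47. The motifs of 3 families of cell cycle promoters were searched on both strands. E2F elements are bound by E2F factors at genes of the G1/S step, and the forms searched were TTCGCGC, besides it TTGGCGC, further TTCCCGC and lastly TTGCCGC. The cell cycle homology region or CHR, searched as TTTGAA and likewise TTCGAA, is bound by the DREAM and MuvB complexes at genes of G2 and mitosis, and CCAAT boxes are bound by NF-Y. TTGGCGC after an A shares bases with a reversed CCAAT box, so that 1 stretch can count for both.

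The 250 bases upstream of the start are printed for 4 genes that show these patterns, in lower case with motif matches in capitals. Cdk1, the mitotic kinase, held all 3 kinds. Bub1b and Espl1, genes of the spindle checkpoint and of sister separation, held a CHR and a CCAAT box, and Dtl, a replication gene, held E2F elements and a CCAAT box.
Cdk1 (chr10:69352913-69353162, minus strand): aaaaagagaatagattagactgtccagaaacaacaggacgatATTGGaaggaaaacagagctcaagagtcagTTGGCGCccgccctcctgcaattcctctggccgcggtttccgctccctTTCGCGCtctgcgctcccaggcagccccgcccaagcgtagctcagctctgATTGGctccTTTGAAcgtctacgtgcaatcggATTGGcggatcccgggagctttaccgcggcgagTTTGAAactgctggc
Bub1b (chr2:118597961-118598210, plus strand): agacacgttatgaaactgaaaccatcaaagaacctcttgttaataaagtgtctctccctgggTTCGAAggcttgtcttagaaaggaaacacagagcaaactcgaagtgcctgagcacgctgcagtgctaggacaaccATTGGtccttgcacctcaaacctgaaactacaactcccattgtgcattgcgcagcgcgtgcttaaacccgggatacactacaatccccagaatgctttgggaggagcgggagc
Espl1 (chr15:102296043-102296292, plus strand): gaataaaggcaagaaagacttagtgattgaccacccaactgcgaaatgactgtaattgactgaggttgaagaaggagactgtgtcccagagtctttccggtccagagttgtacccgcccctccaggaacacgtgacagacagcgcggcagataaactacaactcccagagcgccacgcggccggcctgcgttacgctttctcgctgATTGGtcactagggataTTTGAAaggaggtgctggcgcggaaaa
Dtl (chr1:191575545-191575794, minus strand): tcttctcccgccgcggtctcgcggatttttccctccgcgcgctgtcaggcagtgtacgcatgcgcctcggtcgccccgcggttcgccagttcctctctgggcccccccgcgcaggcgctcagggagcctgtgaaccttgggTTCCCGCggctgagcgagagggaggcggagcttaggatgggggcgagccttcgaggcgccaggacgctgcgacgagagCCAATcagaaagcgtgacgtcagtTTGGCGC

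Over the full 300-base windows, a CHR match was present in 15 of 17 mitosis and cytokinesis genes (88.2%), against 19.4% of all 27025 promoters. In the 9 windows of origin, synthesis and repair genes, 6 (66.7%) held an E2F element, against 2 of 17 mitosis genes (11.8%) and 9.69% of all promoters. CCAAT boxes were found in 25 of the 36 (69.4%) and in 37.9% of all promoters, and a CHR together with a CCAAT box in 18 of the 36 (50%) and in 7.7% of all. A match is a description of the sequence and not a bound site.

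The OVA and PBS mice overlapped in every one of the 47 genes. None of the 47 passed limma's test at an adjusted p of 0.05 over all genes, where 0.00494% of the 20249 rows tested did (1 row), and the lowest adjusted p among the 47 was 0.446. At an unadjusted p of 0.05, 2 of 47 passed, Cenpf and Espl1, both higher in OVA, against a background of 9.77% of all rows (7.12% counting the higher direction alone). The tests on recovered reads also passed 0 of 47 after adjustment, in edgeR (background 0.00988%) and in DESeq2 (background 0.854%). At an unadjusted p of 0.05, 1 of 47 passed in edgeR (background 9.06%) and 1 of 47 in DESeq2 (background 9.27%). In no gene did the 5 OVA values lie apart from the 5 PBS values, which they did in 1.78% of all rows. The log2 difference, OVA minus PBS, was positive in 30 of 47, against 54.5% of all rows, with a median of 0.11 beside 0.04 for all rows. The split depended on the scaling and the test: 24 of 47 were positive in edgeR (background 50.8%), 24 of 47 in DESeq2 (background 50.3%) and 38 of 47 with each library at the same total (background 67.1%). The half-width of the 95% interval had a median of 0.65 on the log2 scale.

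**Figure D2:**
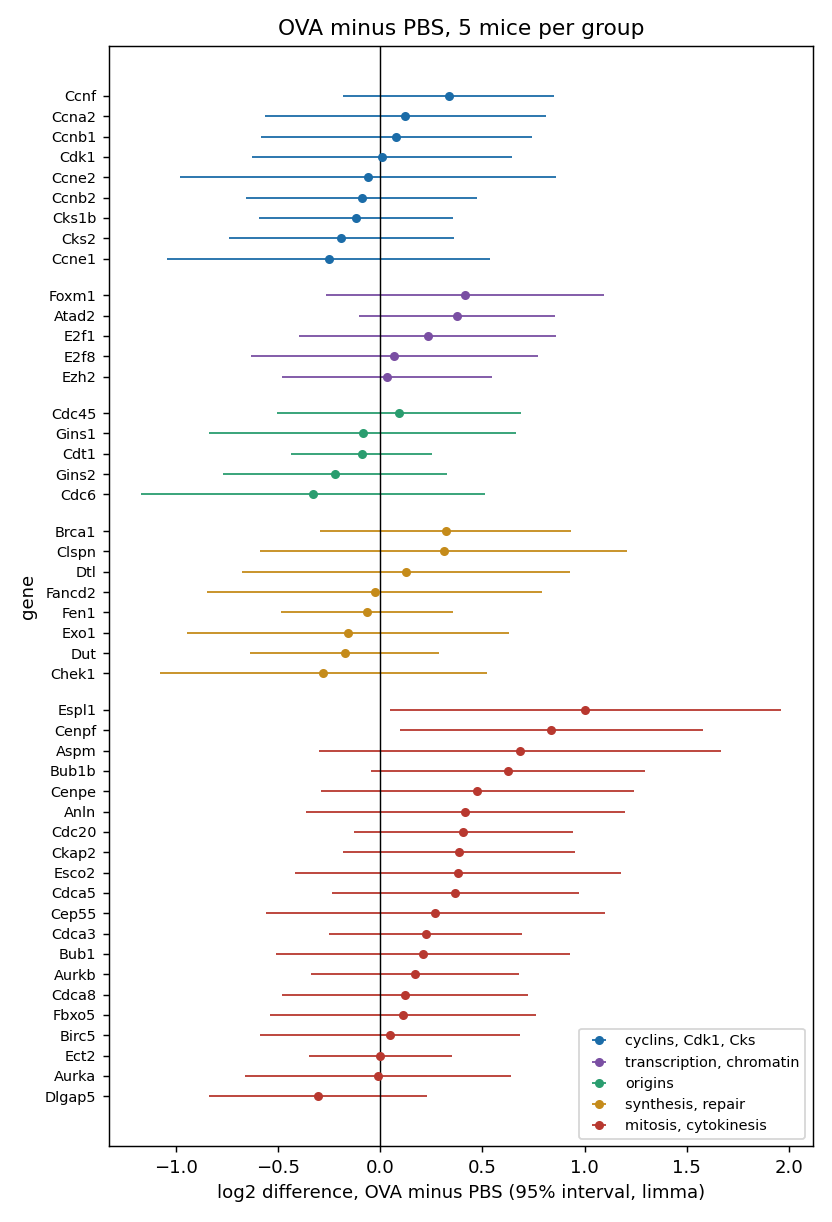
Log2 difference, OVA minus PBS (horizontal axis), with the 95% interval of limma, for each of 47 genes (vertical axis) in colours by role, 5 mice per group. Only the intervals of Espl1 and Cenpf leave out 0, and 17 of 20 mitosis genes lie on the positive side.

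Instead the genes differed from mouse to mouse, and together. PBS replicate 3 had the highest value of the 10 libraries in 35 of 47 genes and PBS replicate 1 the lowest in 29. Those 2 control mice were the extremes on these same genes, so a wide gap in the same direction partly follows from picking them. Between them the median gene differed by 1.56 on the log2 scale, 2.94-fold, in the same direction in 45 of 47. Among OVA mice, replicate 10 was highest in 37. All 5 OVA values lay inside the range of the PBS values in 29 genes. No share over all rows was taken for these counts, so they describe the 47 genes only. Within groups the median SD was 0.589 on the log2 scale, against 0.311 for the 10063 rows of like level, of which 10.4% had an SD above the genes' median. Each gene followed the mean of the others with a median Pearson r of 0.87 and Spearman rho of 0.83 over 10 libraries (r of 0.74 without PBS replicates 3 and 1), above 0.8 in 33 of 47, where 2.14% of all rows were. The genes share the same libraries, with their depth and scaling, and no p is attached.

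**Figure D3:**
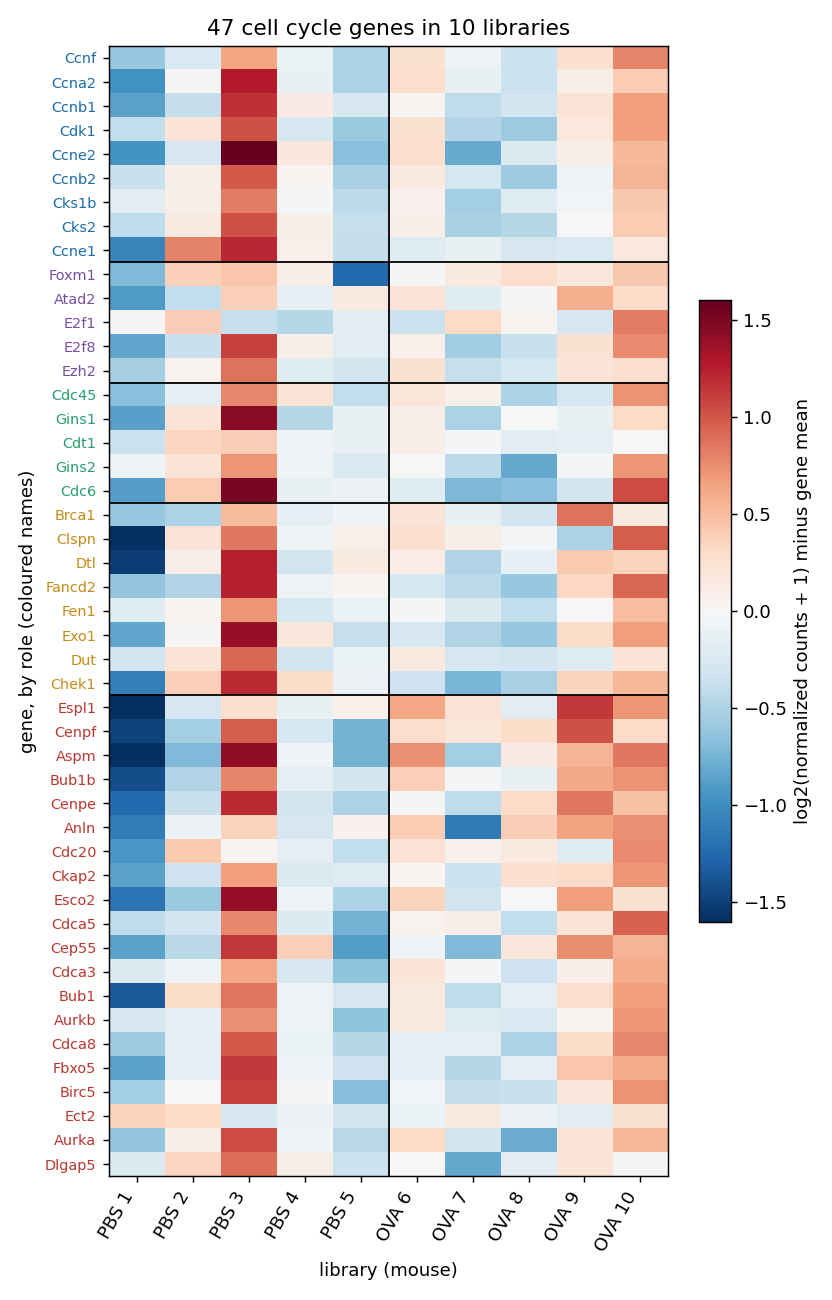
Log2(normalized counts + 1) minus the gene's mean over the 10 libraries, as colour, for 47 genes (rows, by role in the colours of their names) in 10 libraries (columns). PBS replicate 3 is above the mean in most genes and PBS replicate 1 below, while OVA replicates 6 to 10 lie mostly between them.

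Summed over the 47 genes, the normalized counts were 14737 in PBS replicate 1, 38916 in PBS replicate 3 and 30569 in OVA replicate 10, or 0.068%, 0.206% and 0.179% of the library. PBS replicate 3 was also the library with the fewest reads, and the fewest reads behind any of these genes in any library were 17, for E2f1 in that library. Markers of erythroid cells, whose precursors also divide in the spleen, were highest as a sum in the same control library. Their sum over 12 markers ran from 16090 to 81690 normalized counts in PBS and from 9027 to 38640 in OVA, with the highest values in PBS replicate 3 (81690), PBS replicate 2 (41760) and OVA replicate 10 (38640), and PBS replicate 1 the lowest of the PBS group. Car1 and Car2 gave most of the erythroid sum in PBS replicate 3, with 28320 and 42320 normalized counts. Add2 was lowest of the 10 libraries there (2188), Alas2 was highest in OVA replicate 10 (129.8) and Fech in PBS replicate 2 (826). The other erythroid markers were highest in PBS replicate 3. All 12 had a negative log2 difference, as had 9206 of the 20249 rows tested. In limma 4 of the 12 were lower at an unadjusted p under 0.05, as were 537 of all rows, and 0 passed after adjustment. The markers were read in the same libraries, so they are not independent. None was at or under 3 reads in all libraries (Ahsp was not in the table). T cell markers summed to 67940 in PBS replicate 3, the lowest library, and 123900 in PBS replicate 1, the highest, with OVA between 80110 and 107300. B cell markers summed to between 1498 and 3978 in PBS and 1582 and 7122 in OVA, and myeloid markers to between 1274 and 2861 and between 1242 and 8511, with the highest of each in OVA replicate 6. The 3 germinal centre and plasma cell markers read gave 74.9 to 258 in PBS and 83.9 to 203 in OVA. The part of these cells in the levels of the cell cycle genes was not tested, and in bulk RNA a smaller number of dividing cells cannot be told apart from less RNA per cell.

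**Figure D4:**
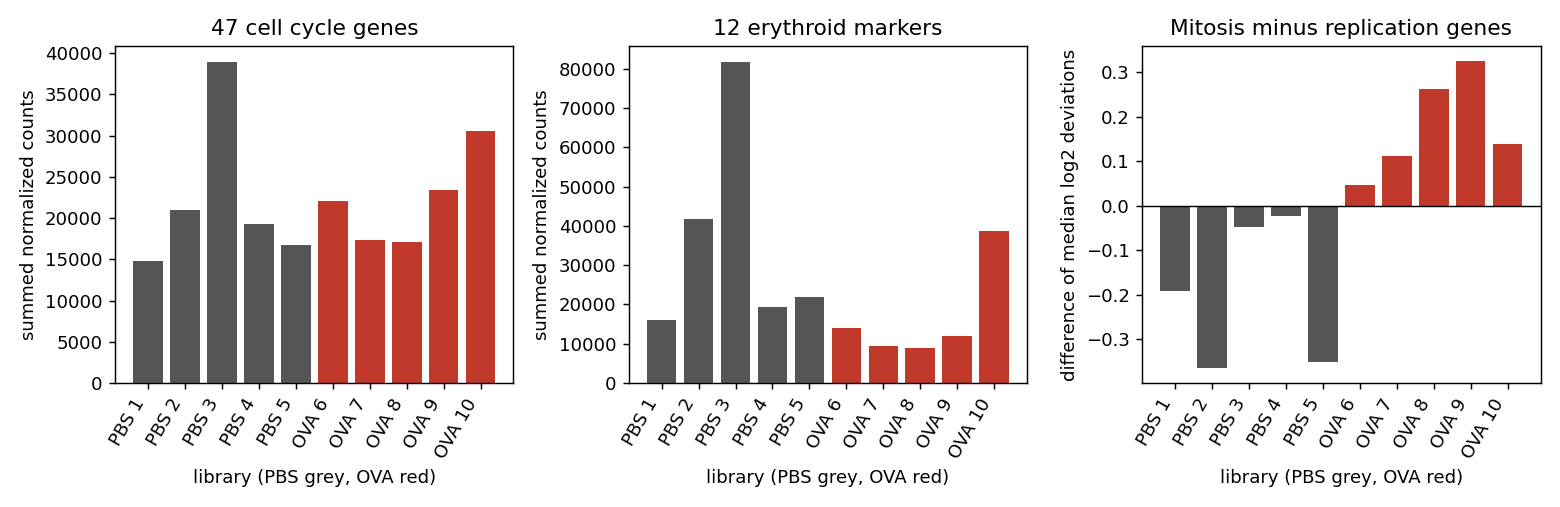
Summed normalized counts of 47 cell cycle genes (left) and 12 erythroid markers (middle), and the median log2 deviation of the mitosis genes minus that of the replication genes (right), in each of 10 libraries, grey for PBS and red for OVA. PBS replicate 3 and OVA replicate 10 lead the left panel, PBS replicates 3 and 2 the middle panel, and the right panel is below 0 in every PBS and above 0 in every OVA library.

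The cyclins and their kinase varied widely within both groups, and 0 of 9 passed the test. Ccne1 encodes cyclin E1, which acts with CDK2 at the start of S phase, and had normalized counts of 35.6, 131, 174, 79.6 and 57.8 in PBS replicates 1 to 5 and 66, 69.5, 62.6, 63.7 and 85 in OVA replicates 6 to 10. The OVA values lay within the PBS range, which was set by PBS replicates 1 and 3, with group means of 95.7 ± 56.5 (SD, n = 5) in PBS and 69.3 ± 9.14 (SD, n = 5) in OVA. The log2 difference was -0.25 ± 0.37 (SE) with an adjusted p of 0.856 in limma.

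Ccna2, cyclin A2, which serves both S phase and the entry to mitosis, had normalized counts of 161, 319, 759, 289 and 221 in PBS replicates 1 to 5 and 384, 289, 247, 336 and 416 in OVA replicates 6 to 10. PBS replicate 3 was far above any other library, and the other libraries overlapped, with a log2 difference of 0.12 ± 0.32 (SE) and a limma adjusted p of 0.925. Ccnb1, cyclin B1, the partner of CDK1 at mitotic entry, had normalized counts of 436, 603, 1770, 859 and 656 in PBS replicates 1 to 5 and 804, 591, 636, 918 and 1239 in OVA replicates 6 to 10. Again PBS replicate 3 was highest and OVA replicate 10 next, and the log2 difference was 0.08 ± 0.31 (SE) with a limma adjusted p of 0.953.

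Cdk1, the kinase that drives mitosis, had normalized counts of 458, 696, 1221, 508 and 401 in PBS replicates 1 to 5 and 713, 438, 402, 682 and 957 in OVA replicates 6 to 10. Its group means, 657 ± 334 (SD, n = 5) in PBS and 638 ± 226 (SD, n = 5) in OVA, gave a log2 difference of 0.01 ± 0.30 (SE), with a limma adjusted p of 0.995 and a 95% interval from -0.63 to 0.64. Ccne2, Ccnb2, Cks1b and Cks2, the second cyclin E and B genes and the small subunits that bind the kinases, had log2 differences between -0.19 and -0.06, and Ccnf, cyclin F, a subunit of a ubiquitin ligase, stood at 0.33 ± 0.24 (SE), limma adjusted p 0.669. The median of the 9 genes was -0.06, with 4 positive and 5 negative. That median had no stable sign, with 0.053 at the same total, 0.025 with array weights, and a range with 1 mouse left out from -0.23, without PBS replicate 5, to 0.26, without PBS replicate 3.

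The transcription and chromatin regulators had positive log2 differences in 5 of 5, with a median of 0.23, and 0 of 5 passed. That median is the value of the row read as E2f1, which did not follow the other genes across the libraries. Of these, Ezh2 was negative in edgeR and DESeq2. Foxm1 encodes the factor that turns on G2 and mitotic genes and had normalized counts of 54.3, 116, 122, 95.8 and 37 in PBS replicates 1 to 5 and 88.5, 98.9, 109, 101 and 121 in OVA replicates 6 to 10. The 2 lowest of the 10 were PBS replicates 5 and 1 and the OVA mice were close to each other, with means of 85 ± 37.7 (SD, n = 5) in PBS and 104 ± 12.2 (SD, n = 5) in OVA, a log2 difference of 0.41 ± 0.32 (SE) and a limma adjusted p of 0.693. E2f1, the activator of the S phase genes, had normalized counts of 61.8, 80, 47.1, 44.1 and 54.1 in PBS replicates 1 to 5 and 48, 76.4, 62.6, 50.5 and 109 in OVA replicates 6 to 10.

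Unlike all others but Ect2, the row read as E2f1 did not follow the set. Its r with the mean of the other genes was 0.01, its highest value was in OVA replicate 10 and PBS replicate 3 was among the lower, and the log2 difference was 0.23 ± 0.29 (SE), limma adjusted p 0.83. Read 4 and 3 rows above its name instead, r was 0.78 and 0.77. Whether any of these rows holds the values of E2f1 was not tested. Ezh2, the methyltransferase that writes the repressive mark on histone H3 lysine 27, had normalized counts of 301, 452, 795, 379 and 351 in PBS replicates 1 to 5 and 514, 335, 357, 504 and 522 in OVA replicates 6 to 10. It followed the set closely (r 0.95), with a log2 difference of 0.03 ± 0.24 (SE) and a limma adjusted p of 0.976. E2f8, a repressor of the E2F family, and Atad2, a chromatin factor, had log2 differences of 0.07 ± 0.33 (SE) and 0.37 ± 0.22 (SE).

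The genes of origin licensing and firing had a median log2 difference of -0.09, with 1 positive and 4 negative, and 0 of 5 passed. The median was 0.022 with each library at the same total and ran from -0.27, without PBS replicate 1, to 0.0089, without PBS replicate 3. Cdc6, which loads the replicative helicase onto origins, had normalized counts of 361, 882, 1905, 613 and 624 in PBS replicates 1 to 5 and 581, 406, 420.0, 544 and 1376 in OVA replicates 6 to 10. A single mouse in each group stood above the rest, PBS replicate 3 and OVA replicate 10, and the log2 difference was -0.33 ± 0.39 (SE) with a limma adjusted p of 0.818. Cdt1, its partner in licensing, had normalized counts of 370.1, 595, 615, 449.7 and 432 in PBS replicates 1 to 5 and 503, 460.0, 418, 422 and 471 in OVA replicates 6 to 10.

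Cdt1 was the steadiest of these, with an OVA range inside the PBS range and a log2 difference of -0.09 ± 0.16 (SE), limma adjusted p 0.886. Gins2, a subunit of the GINS complex that joins the helicase, had normalized counts of 398, 484, 684, 404 and 353 in PBS replicates 1 to 5 and 421, 313, 236, 411 and 679.9 in OVA replicates 6 to 10. PBS replicate 3 and OVA replicate 10 were close to each other at the top and OVA replicate 8 lowest, giving a log2 difference of -0.22 ± 0.26 (SE) with a limma adjusted p of 0.811. Gins1, another GINS subunit, and Cdc45, a further part of the helicase, had log2 differences of -0.09 ± 0.35 (SE) and 0.09 ± 0.28 (SE).

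Genes of DNA synthesis, the fork checkpoint and repair had a median of -0.05, with 3 positive and 5 negative, and 0 of 8 passed. Here too the sign of the median turned, to 0.065 at the same total and 0.025 with array weights, and it ran from -0.22, without OVA replicate 10, to 0.22, without PBS replicate 3. Fen1, which trims the flaps of lagging-strand fragments, had normalized counts of 2650, 3101, 4949, 2503 and 2816 in PBS replicates 1 to 5 and 2958, 2586, 2302, 3041 and 4267 in OVA replicates 6 to 10. PBS replicate 3 and OVA replicate 10 were highest and the other mice overlapped, with means of 3204 ± 1001 (SD, n = 5) in PBS and 3031 ± 752 (SD, n = 5) in OVA, a log2 difference of -0.07 ± 0.20 (SE) and a limma adjusted p of 0.935. The other 7 were Dut, which removes dUTP, Chek1, the checkpoint kinase, Clspn, its adaptor, Dtl, which marks Cdt1 for destruction, Exo1, a nuclease, and Brca1 and Fancd2, repair genes. Their log2 differences ran from -0.28 (Chek1) to 0.32 (Brca1), with adjusted p from 0.747 to 0.988 in limma.

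The mitosis and cytokinesis genes leaned higher in OVA. Of these 20, 17 had a positive log2 difference in limma, against 54.5% of all rows, with a median of 0.32, and 0 of 20 passed after adjustment. Most of these genes followed each other across the same libraries, so the 17 are not independent observations. The median of the 20 was 0.19 in edgeR, 0.17 in DESeq2 and 0.43 with each library at the same total. It ran from 0.16, without PBS replicate 1, to 0.51, without PBS replicate 3. Birc5, survivin, a subunit of the chromosomal passenger complex that guides chromosome attachment, had normalized counts of 586, 859, 1828, 868 and 536 in PBS replicates 1 to 5 and 833, 659, 667, 969 and 1415 in OVA replicates 6 to 10. PBS replicate 3 and OVA replicate 10 led, and the log2 difference was 0.05 ± 0.30 (SE) with a limma adjusted p of 0.973. Aurkb, the kinase of that complex, had normalized counts of 502, 546, 1005, 572 and 386 in PBS replicates 1 to 5 and 678, 524, 510.1, 621 and 977 in OVA replicates 6 to 10. It showed the same leading mice, a log2 difference of 0.17 ± 0.24 (SE) and a limma adjusted p of 0.849.

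Cenpf, a kinetochore protein (chromosome 1, 189640606 to 189688087, mm10), had the smallest p of the 47 in limma, while Espl1 had the smaller p of these 2 in the permutation test, in edgeR (0.0484 against 0.0692 for Cenpf) and in DESeq2 (0.0352 against 0.0738). It had normalized counts of 100.2, 193, 554, 231 and 167 in PBS replicates 1 to 5 and 342, 322, 345, 574 and 350.2 in OVA replicates 6 to 10. All 5 OVA mice were above 4 of the 5 PBS mice, and PBS replicate 3 was above 4 of the 5 OVA mice. With means of 249 ± 177 (SD, n = 5) in PBS and 387 ± 105 (SD, n = 5) in OVA, the log2 difference was 0.84 ± 0.35 (SE), with an unadjusted p of 0.0291 and an adjusted p of 0.446 in limma, and 0.0873 in the exact two-sided permutation test.

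Espl1, separase, the protease that cuts cohesin at anaphase (chromosome 15, 102296266 to 102324358), had normalized counts of 16.9, 80.9, 116, 89.3 and 103 in PBS replicates 1 to 5 and 149.9, 114, 86.3, 214 and 159 in OVA replicates 6 to 10. PBS replicate 1 stood far below the rest and 3 OVA mice stood above all PBS mice. Group means were 81.2 ± 38.4 (SD, n = 5) in PBS and 145 ± 48.3 (SD, n = 5) in OVA, with a log2 difference of 1.00 ± 0.45 (SE), an unadjusted p of 0.0406 and an adjusted p of 0.486 in limma, and 0.0556 in the exact two-sided permutation test, whose smallest possible p is 0.00794. Bub1b, the spindle checkpoint kinase BUBR1 (chromosome 2, 118598211 to 118641592), had normalized counts of 174, 336, 803, 423 and 382 in PBS replicates 1 to 5 and 612, 460.0, 430.4, 712 and 774 in OVA replicates 6 to 10. The OVA mice were all above 4 of 5 PBS mice, PBS replicate 3 was the highest of all, and the log2 difference was 0.63 ± 0.31 (SE), limma adjusted p 0.534.

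Dlgap5, a spindle protein, was the mitotic gene with the smallest p among those lower in OVA. Libraries gave it normalized counts of 244, 358, 526, 303 and 222 in PBS replicates 1 to 5 and 284, 159.6, 251, 326 and 288 in OVA replicates 6 to 10. OVA replicate 7 was lowest and PBS replicate 3 highest, with a log2 difference of -0.31 ± 0.25 (SE) and a limma adjusted p of 0.714. The other 14 mitotic genes had log2 differences from -0.01 (Aurka, the centrosome kinase) to 0.68 (Aspm, a spindle pole protein). Cdc20, the activator of the anaphase-promoting complex, had a log2 difference of 0.41 ± 0.25 (SE), and Fbxo5, its inhibitor EMI1, of 0.11 ± 0.30 (SE). The kinetochore genes Cenpe and Bub1 had log2 differences of 0.48 ± 0.36 (SE) and 0.21 ± 0.34 (SE), and Cdca8, a further subunit of the passenger complex, of 0.12 ± 0.28 (SE). Cdca5 (sororin) and Esco2, which hold sister chromatids together through cohesin, were at 0.37 ± 0.28 (SE) and 0.38 ± 0.37 (SE) on the log2 scale, and Ckap2, a spindle protein, and Cdca3 at 0.39 ± 0.27 (SE) and 0.22 ± 0.22 (SE). Anln and Cep55, which act in cytokinesis, had log2 differences of 0.42 ± 0.36 (SE) and 0.27 ± 0.39 (SE). Ect2, which directs the cleavage furrow, was the other row that did not follow the set (r -0.30), while the row 1 below it, 5 rows above its name, did (r 0.92). The 2 rows gave log2 differences of -6e-04 and 0.27, with adjusted p of 0.999 and 0.814 in limma.

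**Figure D5:**
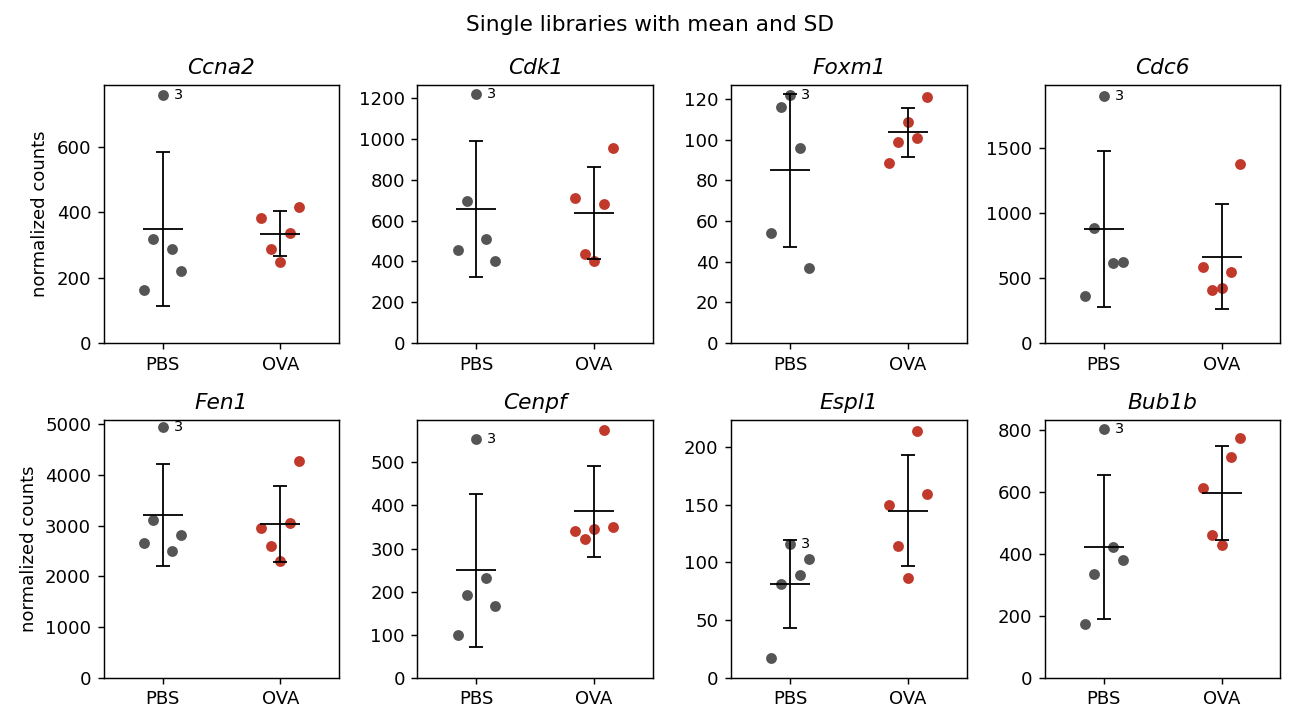
Normalized counts (vertical axes, from 0) of 8 genes in single libraries, grey for PBS and red for OVA, with the mean and SD of 5 mice as bars. The PBS point marked 3 is PBS replicate 3, the highest PBS value in each of the 8 panels.

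Set beside the replication genes, the mitotic genes stood higher in the OVA libraries than in the PBS libraries. In each library the median log2 deviation of the 20 mitotic genes minus that of the origin, synthesis and repair genes was -0.19, -0.36, -0.05, -0.02 and -0.35 in PBS replicates 1 to 5 and 0.05, 0.11, 0.26, 0.33 and 0.14 in OVA replicates 6 to 10. The 2 groups of values did not overlap. This contrast was set up after the values were seen and is a description without a test. Longer genes also leaned higher in OVA: the log2 difference and the length of the longest transcript had a Spearman rho of 0.36 over the 47 genes and 0.35 over 2436 other genes, across genes, which are not independent replicates. The median length was 3389 bases for the mitotic genes, 2696 for the origin genes and 4860 for the synthesis and repair genes. The part of length in the contrast was not tested.

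The counts above turn on single mice. Without PBS replicate 3 the median log2 difference of the 47 genes was 0.38, 42 were positive (background 54.6%) and 11 were higher at an unadjusted p under 0.05 (background 7.14%), with 0 after adjustment in limma (background 0.0%). Those 11 were Cenpf, Bub1b, Aspm, Cenpe, Esco2, Ckap2, Ccnf, Espl1, Cdca5, Atad2 and Cdca3, of which 9 are mitotic. Without PBS replicate 1 the median was -0.09, 19 were positive (background 54.3%) and 0 were past that level (background 9.71%), and without OVA replicate 10 the median was -0.03 with 22 positive (background 54.7%) and 1 past it (background 10.9%). With both PBS replicates 1 and 3 left out, an alternative chosen after seeing the data, it was 0.21 with 38 positive (background 53.3%) and 6 higher at that level (background 6.1%). Groups that did not overlap numbered 2 without PBS replicate 3 (Cenpf and Bub1b, background 2.89%), 1 without OVA replicate 7 (background 2.57%) and 2 with both PBS replicates left out (background 4.65%). Among the mitotic genes described by library, Espl1 had a log2 difference from 0.51, without PBS replicate 1, to 1.19, without PBS replicate 3. Cenpf ran from 0.57 to 1.19 and Bub1b from 0.35 to 0.90 without the same mice.

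Further genes of the cycle, from 3 lists drawn up beside the 47, were read by the same rule. Of 45 other proliferation genes, 35 had a positive log2 difference (median 0.19), against 54.5% of all rows, and 6 were higher at an unadjusted p under 0.05, against 7.12%. After adjustment 0 passed in limma, and 1, Depdc1b, passed in DESeq2, where 0.854% of all rows did. Depdc1b, a gene of mitotic progression, had normalized counts of 106, 87.8, 155, 162 and 110.1 in PBS replicates 1 to 5 and 236, 201, 206, 297 and 429 in OVA replicates 6 to 10. Every OVA mouse was above every PBS mouse, in this 1 gene of the 45, where the groups did not overlap in 1.78% of all rows. The log2 difference was 1.11 ± 0.25 (SE), with an adjusted p of 0.164 in limma. The exact two-sided permutation test gave 0.00794, the smallest it can give and its value for any gene whose groups do not overlap. Cit, citron kinase of cytokinesis, had a log2 difference of 0.60 ± 0.21 (SE), limma adjusted p 0.342, and Depdc1a had a log2 difference of 1.17 ± 0.52 (SE), limma adjusted p 0.487. Lowest in p among those lower in OVA were Cdc25a, the phosphatase that activates the kinases, with a log2 difference of -0.22 ± 0.17 (SE), Cenpw, a centromere protein, with -0.24 ± 0.21 (SE), and Chaf1b, a histone chaperone subunit, with -0.19 ± 0.21 (SE).

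A further list held the D-type cyclins, which respond to growth signals in G1, with Cdk2, Cdk4, Cdk6, Cdk7, Ccnh and the transcription factor E2f4. It had 2 of 9 positive, against 54.5% of all rows, with a median of -0.10, and 0 of 9 passed in limma. E2f4, the E2F of resting cells, had a log2 difference of -0.32 ± 0.15 (SE), limma adjusted p 0.508, and Cdk6, a G1 kinase, had a log2 difference of 0.42 ± 0.21 (SE), limma adjusted p 0.538. Cell cycle inhibitors and quiescence genes had 4 of 10 positive, against the same share, with a median of -0.09, and 0 of 10 passed. Cdkn1b, p27, an inhibitor of the kinases, had the smallest p of these, with a log2 difference of -0.36 ± 0.19 (SE) and a limma adjusted p of 0.569.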

How the data were processed

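RNA of spleen CD3+ T cells from 5 PBS-treated and 5 OVA-treated Nf1OPG mice was sequenced on an Illumina HiSeq. The authors demultiplexed the reads with bcl2fastq, aligned them with STAR 2.6.1d to the Ensembl mouse assembly (mm10 per the labels), counted them per gene in Partek Flow 9.0 and scaled the libraries by median-ratio size factors. The deposited values are therefore signal, that is, normalized counts, and a fold change is on the log2(normalized counts + 1) scale. All values (100%) were whole multiples, to within 0.1, of what 1 read is worth in that library, which gave back the reads. The value of 3 reads was 8.31 normalized counts in PBS replicate 3 and 1.88 to 3.60 in the others, which covers counting error only.

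Groups were taken from the labels' treatment and replicate numbers from the titles. The 20249 of 20617 rows whose mean reached 1 normalized count were tested with limma 3.58.1 in R 4.3.3 (variance trend, Benjamini-Hochberg adjustment over all rows). For single genes an exact two-sided permutation test over all 252 ways of splitting the 10 mice was added. Recovered reads were tested with edgeR 4.0.16 and DESeq2 1.42.0 as alternatives. Each gene was read 3 rows above its name for names starting with A, B, C1, Ca, Cc, Cd or Ce, 4 for Ch, Ci, Ck and Cl, 5 for D and E2f, 6 for Ect2 and 7 for other names from E to Gins2. The rule gives no distance for names starting with C1, Ca or Ci. Car1, Car2, Camp, the C1q genes, Cit and Cip2a were read at the distance shared by the stretches on either side. The markers Ebf1 and Eaf2 stand between stretches of different distance, where none is given, and were left out. Transcript lengths came from GENCODE M21, with other genes at a mean of at least 60 normalized counts. The scripts were tested on simulated data.

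The 47 genes, their roles, the further lists, the motifs and the row offsets were chosen with earlier results of these data known. Described library by library were 12 genes picked for their place in the cycle and the 3 genes with the smallest p in each direction. The other genes are given by range and count. Of the further lists, up to 3 genes per direction are named.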

Additional observations from a re-analysis of the deposited data

Results flagged for a closer look

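In 96 groups of 5 libraries (the 47 genes and the median over them, in PBS and OVA), 3 held a library whose gap to the nearest other, divided by the range of the group on the log2 scale, was above the critical ratio of 0.71. Chance flags about 1 in 20 such groups, or 4.8 of 96. The genes share the same libraries and followed each other, so the 96 groups are not independent. Cenpf in OVA had a ratio of 0.857, with OVA replicate 9 highest at 574 normalized counts beside 322 to 350 in the other OVA mice. Espl1 in PBS had a ratio of 0.809, with PBS replicate 1 lowest at 16.9 beside 80.9 to 116 in the other PBS mice. Anln, which encodes anillin, a scaffold of the contractile ring, had a ratio of 0.822 in OVA, with OVA replicate 7 lowest at 46.3 beside 136 to 171.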

How the results depend on the processing

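No paired analysis was possible because the PBS and OVA mice share no replicate numbers. Under every alternative run, 0 of the 47 genes passed an adjusted p of 0.05. The 5 role medians and the median of all 47 moved by less than the spread between mice, except the origin median with names as listed (0.30). That spread is wide: the median deviation of the 47 genes had an SD of 0.64 in PBS and 0.37 in OVA on the log2 scale. Their median log2 difference was 0.11, so a move within the spread can still turn its sign. Signs still turned with the scaling in 3 of the 5: at the same total the cyclin, origin and synthesis medians were 0.053, 0.022 and 0.065, and with a library left out they ran from -0.23 to 0.26, from -0.27 to 0.0089 and from -0.22 to 0.22, while the median of all 47 ran from -0.089 to 0.38. Scaling each library to the same total moved the median of all genes from 0.04 to 0.15 on the log2 scale. Of all rows, 1 passed in limma, 173 in DESeq2, 2 in edgeR and with array weights, and 0 with a pseudocount of 0.1, with quantile normalization and with both PBS replicates 1 and 3 left out. With a library left out the count ran from 0 to 135, the highest without PBS replicate 5. Other pathway genes that passed numbered 1 in DESeq2. Genes whose groups did not overlap numbered 0 to 2 with a library left out (2 without PBS replicate 3, beside 2.89% of all rows, and 1 without OVA replicate 7, beside 2.57%), 2 with both PBS replicates left out, beside 4.65%, and 1 with names as listed and with rows 1 larger.

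Of 17 genes described by library, none had an adjusted p past 0.05 under any alternative, and the sign of small differences turned in some. On recovered reads the log2 differences of Ccna2, Ccnb1, Cdk1, Ezh2 and Birc5 were -0.052, -0.041, -0.035, -0.019 and -0.037 in DESeq2 and -0.024, -0.019, -0.015, -0.0047 and -0.016 in edgeR. Fen1 had 0.048 with array weights, 0.047 at the same total, 0.084 with both PBS replicates out and 0.025 with quantile normalization, and Cdt1 had 0.022 at the same total. With a library left out, Ccna2 ran from -0.10 to 0.46, Ccnb1 from -0.12 to 0.38, Ccne1 from -0.55 to 0.016, Cdc6 from -0.63 to 0.0089, Cdk1 from -0.15 to 0.26, Ezh2 from -0.092 to 0.26, Fen1 from -0.20 to 0.10 and Birc5 from -0.13 to 0.32. Other rows hold other genes: with names as listed the values were Ccna2 -2.11, Ccnb1 -0.091, E2f1 -0.041, Cdc6 0.48, Birc5 -0.20, Aurkb -2.35, Espl1 -0.28, Bub1b -0.13, Dlgap5 0.058 and Gins2 0.36. Rows 1 smaller gave Cdk1 -0.24, Foxm1 -0.081, Cdc6 0.30, Cdt1 0.28, Cenpf -0.16 and Bub1b -0.17, and rows 1 larger gave Fen1 0.22, Aurkb -0.17 and Dlgap5 0.10. The cause of the other changes was not tested. The lowest depth, in PBS replicate 3, left 17 reads for the gene with the fewest.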
